A study of Mus musculus with 40 samples.

Results

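The mechanistic target of rapamycin complex 1 (mTORC1) was followed through the transcripts of its own parts: the kinase *Mtor*, the shared or scaffolding subunits *Rptor* and *Mlst8*, the inhibitory subunits *Akt1s1* and *Deptor*, the activating GTPase *Rheb* with its brake *Tsc1* and *Tsc2*, and the kinase substrates *Rps6kb1* and *Eif4ebp1*. These 10 genes were chosen by symbol, and each matched 1 row among the 47643 Ensembl genes of the tables for both regions. All 10 passed the minimum of 10 summed counts in every comparison and were tested.

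RNA-seq was performed on 40 pooled libraries of 2 brain regions, asking how the recipient brain transcriptome differs after transfer of a microbiota shaped by the clinical ketogenic diet (KD). All groups were wild-type Swiss Webster mice, an outbred stock, raised germ-free and stated in the methods to be young females on standard chow, which received a human fecal microbiota transplant (FMT). The groups were pre-KD FMT and post-KD FMT, made with stool that children with refractory epilepsy gave before the diet and while on it. With 10 donors there were 20 cohorts, 10 in each condition, and both the hippocampus and the frontal cortex of a cohort were sequenced, giving 10 libraries for each region and condition. Per the methods, a library pooled RNA from several recipients of 1 stool sample, so the replicate is the cohort, the spread between mice within a pool is not seen, and no recipient was left without human microbiota.

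mTORC1 couples nutrients, growth factors and energy to protein synthesis. On the lysosome surface Rag GTPases recruit the complex in response to amino acids, while Rheb, held inactive by the TSC1-TSC2 complex, switches the kinase on. The active kinase phosphorylates S6 kinase and the translation repressor 4E-BP1 and restrains autophagy. In the brain the pathway is known for its part in neuronal growth and synaptic plasticity, and loss-of-function mutations of *TSC1*, *TSC2* and of genes of the upstream GATOR1 complex cause epilepsies. The complex is controlled mainly by binding and phosphorylation, which RNA-seq does not measure.

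Totals were low for bulk brain RNA-seq: 1140756 to 1947416 counts per hippocampal library and 1188447 to 2095352 per frontal cortical library. The number of genes with a count varied between 10223 and 15750, with the fewest in the hippocampal libraries of pre-KD cohorts 5 and 7 and post-KD cohort 6. Markers fitted the regional labels in part: 5 of 8 hippocampal markers, such as *Prox1*, passed the adjusted threshold as higher in the hippocampus, and of 8 frontal cortical markers 2 (*Foxp2* and *Rorb*) were higher in the frontal cortex, while 1, the deep-layer gene *Fezf2*, was higher in the hippocampus. Of 7 striatal genes, the 6 that could be tested were higher in the frontal cortex, and 4 of 6 choroid plexus genes were higher in the hippocampus. Y-linked transcripts had counts in 5 to 7 of 10 libraries of every group, although the methods name female mice. In bulk tissue, fewer cells of a type and less RNA per cell cannot be told apart.

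The 10 genes were detected at low to moderate levels. Levels are given as CPM, read counts scaled to a common library size, with trimmed mean of M values (TMM) factors over all 40 libraries. Summed over the 10 genes, pre-KD libraries of the hippocampus held 374 ± 72.0 CPM (SD, n = 10) and post-KD libraries 312 ± 65.8 CPM, with 379 ± 43.5 and 328 ± 62.4 CPM in the frontal cortex. The highest CPM belonged to *Rps6kb1* (81.2 in hippocampal and 78.0 in frontal cortical libraries, means of 20), and the lowest to *Akt1s1* (5.06 and 4.94) and *Eif4ebp1* (6.23 and 6.51). *Akt1s1* averaged only 7.85 and 8.30 reads per library in the 2 regions and *Eif4ebp1* 9.80 and 10.4, so these 2 genes rest on few reads. A count of 0 allows up to 3 counts, equal to 1.63 to 2.501 CPM in hippocampal and 1.496 to 2.83 CPM in frontal cortical libraries, for counting error only.

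**Figure D1:**
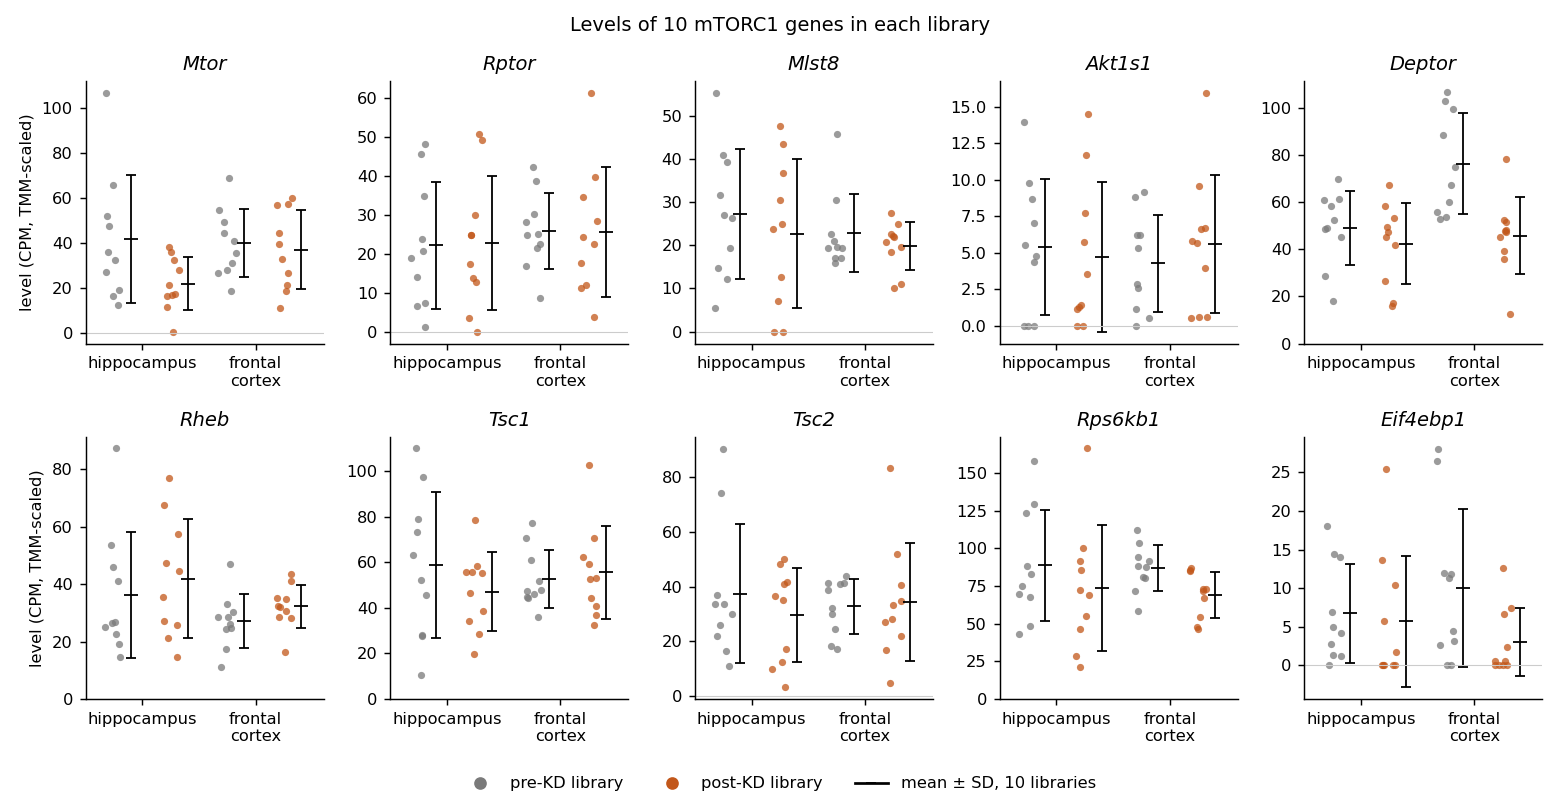
Level of each gene in every library, as TMM-scaled CPM, by region and condition; each point is 1 library and the black bar is the mean ± SD of 10 libraries. The conditions overlap in every panel, least for *Deptor* in the frontal cortex, where 9 of 10 post-KD libraries lie below the lowest pre-KD library.

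Per kilobase of exon, *Rps6kb1* was highest in both regions, at 9.38 CPM per kilobase in hippocampal and 9.01 in frontal cortical libraries. In the hippocampus *Mlst8* (5.62), *Deptor* (5.16), *Rheb* (5.05), *Tsc1* (4.47), *Tsc2* (3.49), *Mtor* (3.15), *Eif4ebp1* (2.84), *Rptor* (1.67) and *Akt1s1* (1.65) followed in that order. The order in the frontal cortex was *Deptor* (6.88), *Mlst8* (4.81), *Tsc1* (4.57), *Rheb* (3.84), *Mtor* (3.81), *Tsc2* (3.49), *Eif4ebp1* (2.97), *Rptor* (1.91) and *Akt1s1* (1.61) after *Rps6kb1*. Both orders pool the conditions and need not hold within each. The frontal cortical mean of *Eif4ebp1* per kilobase lay above that of *Tsc1* pre-KD and below that of *Akt1s1* post-KD. No pair of neighbours in either order passed a paired permutation test over 20 libraries after Benjamini-Hochberg adjustment over 18 pairs. The smallest adjusted p was 0.0590, for *Rps6kb1* over *Deptor* in the frontal cortex, where *Rps6kb1* was higher in 15 of 20 libraries. The methods and labels name a kit that reads whole transcripts, but the key resources list names a 3′ end kit, for which CPM without division by length would be the fitting scale.

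The core of the complex is *Mtor*, the catalytic kinase (chromosome 4, 148448611 to 148557683, mm10), *Rptor*, the scaffold raptor that presents substrates (chromosome 11, 119602905 to 119899576), and *Mlst8*, a stabilizing subunit also found in mTORC2 (chromosome 17, 24473551 to 24479078). In the hippocampus *Mtor* ranged from 12.7 to 107 CPM with a median of 34.3 pre-KD, and from 0.656 to 38.4 CPM with a median of 19.4 post-KD. Pre-KD cohorts 5 (107 CPM) and 7 (66.1 CPM) were the highest libraries and post-KD cohort 8, with 1 count, the lowest. The conditions overlapped, with 4 of 10 pre-KD libraries above the highest post-KD library. The log2 fold change post-KD was −0.93 (SE 0.44, 95% confidence interval −1.81 to −0.05), *Mtor* was lower in 7 of 10 donors, and edgeR's quasi-likelihood test gave p = 0.0375 without adjustment and a Benjamini-Hochberg adjusted p of 0.418.

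With the donor as a block its log2 fold change was −0.93 in both edgeR (unadjusted p = 0.0815) and DESeq2 (unadjusted p = 0.0487), and limma-voom without the block gave unadjusted p = 0.102. Leaving out donors 5, 7, 8 and 10 in turn gave unadjusted p of 0.185, 0.0907, 0.0748 and 0.0919. Pre-KD cohorts 5 and 7 are also the hippocampal libraries with the fewest genes detected, 10223 and 10528. Without the 3 libraries in which fewer than 11000 genes had a count, the log2 fold change was −0.53 and unadjusted p = 0.279. Between the hippocampal conditions 3 marker transcripts also had unadjusted p under 0.05 and none passed the adjusted threshold in edgeR: *Prox1* (log2 fold change −0.57), 1 of 8 hippocampal markers, *Ppp1r1b* (−0.64), 1 of 6 striatal genes tested, all 6 with values below 0, and *Mog* (0.90), 1 of 6 oligodendrocyte genes. Summed striatal markers lay at 105 to 286.8 CPM pre-KD and 49.3 to 206.8 CPM post-KD, hippocampal ones at 762 to 1288 and 766 to 1088 CPM, and oligodendrocyte ones at 2019 to 3610 and 1792 to 3474 CPM. Their part in the *Mtor* difference was not tested. Frontal cortical *Mtor* ranged from 18.8 to 69.2 CPM pre-KD (median 38.3) and from 11.2 to 60.0 CPM post-KD (median 36.5). It was higher in 5 donors and lower in 5, with a log2 fold change of −0.12 (SE 0.29, interval −0.68 to 0.45, adjusted p = 0.998 in edgeR).

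*Rptor* spanned 1.27 to 48.1 CPM pre-KD (median 19.9) and 0 to 50.9 CPM post-KD (median 21.2) in the hippocampus. Both conditions covered nearly the whole range, and the log2 fold change was 0.02 (interval −1.09 to 1.13). The sign was not stable: the value was −0.95 with limma-voom, −0.0989 in the donor-blocked edgeR fit and −0.29 to 0.34 when donors were left out in turn. Frontal cortical *Rptor* spanned 8.66 to 42.4 CPM pre-KD (median 24.97) and 3.78 to 61.3 CPM post-KD (median 23.5), with a log2 fold change of −0.02 (interval −0.74 to 0.70). In the hippocampus, *Rptor* levels up to 2.14-fold lower or 2.20-fold higher post-KD lie within the interval.

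*Mlst8* ranged from 5.57 to 55.2 CPM pre-KD (median 26.6) and from 0 to 47.5 CPM post-KD (median 24.4) in the hippocampus, and 2 post-KD libraries had no *Mlst8* count. Its log2 fold change was −0.27 there (interval −1.34 to 0.79) and −0.20 in the frontal cortex (interval −0.93 to 0.53). Its frontal cortical level ranged from 15.99 to 45.7 CPM pre-KD (median 19.5) and from 10.02 to 27.4 CPM post-KD (median 21.3). Exons of *Mlst8* overlap those of *Bricd5* on the other strand (77 counts over all libraries), and whether strand was used in counting is not given in the sources used here.

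Among the inhibitory subunits, *Deptor* gave the smallest p of the 10 genes. It encodes a protein that binds mTOR and dampens both of its complexes, and lies on chromosome 15 from 55112317 to 55259271. In the frontal cortex *Deptor* ranged from 52.7 to 107 CPM pre-KD with a median of 71.1, and from 12.4 to 78.3 CPM post-KD with a median of 47.6. Of the 10 post-KD libraries 9 lay below the lowest pre-KD library, and 1, from donor 2, lay within the pre-KD range. Pre-KD libraries averaged 76.3 ± 21.4 CPM (SD, n = 10), post-KD libraries averaged 45.8 ± 16.3 CPM, the level was lower post-KD in 9 of 10 donors, and the log2 fold change was −0.74 (SE 0.22, interval −1.19 to −0.29), or 1.67-fold lower. edgeR's quasi-likelihood test gave p = 0.00154 without adjustment and 0.122 after Benjamini-Hochberg adjustment over 17873 genes, so that *Deptor* passed the unadjusted threshold used by the study and not the adjusted one.

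The unadjusted p for frontal cortical *Deptor* stayed between 0.000218 and 0.0126 when each donor was left out in turn, with log2 fold changes from −0.91 to −0.57. With the donor as a block the log2 fold change was −0.77 with unadjusted p = 0.0015 in edgeR, where the adjusted p was 0.826, and the adjusted p lay between 0.0578 and 0.997 over the alternatives. Marker transcripts of blood also had unadjusted p under 0.05 in this comparison: the haemoglobin genes *Hba-a1* (log2 fold change 0.48) and *Hbb-bs* (0.41), 2 of the 3 of 4 blood genes that could be tested, and neither passed the adjusted threshold. Summed striatal markers lay at 446 to 1013 CPM pre-KD and 648 to 1018 CPM post-KD, and summed blood markers at 387 to 1143 CPM and 546 to 1375 CPM. Their part in the *Deptor* difference was not tested. Summed cortical layer markers lay at 290 to 541 CPM pre-KD and 303 to 531 CPM post-KD, and 0 of 8 passed unadjusted p under 0.05.

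In the hippocampus *Deptor* ranged from 17.9 to 69.9 CPM pre-KD (median 50.6) and from 15.99 to 67.4 CPM post-KD (median 46.3). The conditions overlapped over almost the whole range, the level was lower post-KD in 6 of 10 donors, and the log2 fold change was −0.23 (SE 0.34, interval −0.90 to 0.44). The difference between the regional changes of *Deptor* was 0.53 on the log2 scale (SE 0.45, interval −0.34 to 1.41), with unadjusted p = 0.233 and adjusted p = 1 in edgeR, so the frontal cortical value was not shown to differ from the hippocampal one.

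*Akt1s1* encodes PRAS40, which inhibits mTORC1 until Akt phosphorylates it, and lies on chromosome 7 from 44848991 to 44855421. Its hippocampal level ranged from 0 to 14 CPM pre-KD (median 5.14) and from 0 to 14.5 CPM post-KD (median 2.47), with 3 and 2 libraries at 0. Frontal cortical levels ranged from 0 to 9.13 CPM pre-KD (median 4.08) and from 0.539 to 15.96 CPM post-KD (median 5.72). The log2 fold changes were −0.20 (interval −2.49 to 2.08) and 0.38 (interval −1.35 to 2.12), intervals too wide to exclude a several-fold change. Exons of *Akt1s1* overlap those of *Tbc1d17* on the other strand, a gene with 1874 counts summed over all libraries.

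The switch upstream of the kinase comprises *Rheb* (chromosome 5, 24802823 to 24842624), the GTPase that activates mTORC1, and *Tsc1* (chromosome 2, 28641228 to 28691167) and *Tsc2* (chromosome 17, 24595816 to 24632630), which encode hamartin and tuberin, the complex that turns Rheb off. Hippocampal *Rheb* ranged from 14.6 to 87.4 CPM pre-KD (median 26.6) and from 14.8 to 76.7 CPM post-KD (median 40.04). Frontal cortical *Rheb* ranged from 11.2 to 46.8 CPM pre-KD (median 27.2) and from 16.4 to 43.4 CPM post-KD (median 32.3). The conditions overlapped in both regions, with *Rheb* higher post-KD in 6 of 10 donors in each. The log2 fold change was 0.19 in the hippocampus (interval −0.55 to 0.94) and 0.25 in the frontal cortex (interval −0.35 to 0.86).

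*Tsc1* ranged from 10.7 to 110 CPM pre-KD (median 57.8) and from 19.7 to 78.4 CPM post-KD (median 51.0) in the hippocampus, with the 3 highest libraries all pre-KD. Frontal cortical levels ranged from 35.8 to 77.0 CPM pre-KD (median 47.4) and from 32.7 to 102 CPM post-KD (median 52.8). Its log2 fold change was −0.33 (interval −0.96 to 0.31) in the hippocampus and 0.07 (interval −0.37 to 0.52) in the frontal cortex. For the frontal cortex that interval leaves room for a *Tsc1* level up to 1.30-fold lower or 1.44-fold higher post-KD, among the narrower ranges of the 10 genes.

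*Tsc2* ranged from 10.96 to 90.5 CPM pre-KD (median 31.9) and from 3.28 to 50.3 CPM post-KD (median 35.8) in the hippocampus. Frontal cortical *Tsc2* ranged from 17.2 to 44.1 CPM pre-KD (median 35.5) and from 4.75 to 83.5 CPM post-KD (median 30.7), so the post-KD libraries lay on both sides of the pre-KD range. Its log2 fold change was −0.34 (interval −1.19 to 0.50) in the hippocampus and 0.06 (interval −0.56 to 0.68) in the frontal cortex. Exons of *Tsc2* overlap those of *Pkd1* on the other strand, which had 2508 counts over all libraries, so reads of the overlap could not be assigned to 1 gene if strand was not used.

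The direct substrates are *Rps6kb1*, which encodes the S6 kinase that drives translation (chromosome 11, 86498871 to 86544805), and *Eif4ebp1*, which encodes the cap-binding repressor 4E-BP1 (chromosome 8, 27260329 to 27276674). Frontal cortical *Rps6kb1* ranged from 58.6 to 112 CPM pre-KD with a median of 88.0, and from 46.7 to 86.8 CPM post-KD with a median of 72.4. All 10 post-KD libraries lay below the pre-KD median, 6 pre-KD libraries lay above the highest post-KD library, and the level was lower post-KD in 8 of 10 donors. Pre-KD libraries averaged 86.9 ± 15.3 CPM (SD, n = 10) and post-KD libraries 69.2 ± 15.1 CPM, and the log2 fold change was −0.33 (SE 0.18, interval −0.70 to 0.03), with unadjusted p = 0.0752 and adjusted p = 0.625 in edgeR. Under DESeq2 the log2 fold change was −0.33 with unadjusted p = 0.0306, past the unadjusted threshold, and the adjusted p ranged from 0.497 to 1 over the alternatives.

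Hippocampal *Rps6kb1* was more variable, from 43.3 to 158 CPM pre-KD (median 79.1) and from 21.6 to 167 CPM post-KD (median 70.8). Donor 4 held the highest post-KD library (167 CPM). The log2 fold change was −0.27 (SE 0.27, interval −0.80 to 0.27, unadjusted p = 0.322 in edgeR). Without donor 4 it was −0.56 with unadjusted p = 0.0460, and without the 3 libraries of few detected genes it was 0.02. Exons of *Rps6kb1* overlap those of *Rnft1* on the other strand, which had 328 counts over all libraries.

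Frontal cortical *Eif4ebp1* ranged from 0 to 28.1 CPM pre-KD with a median of 7.86, and from 0 to 12.6 CPM post-KD with a median of 0.572. Donors 1 and 2 held the highest libraries of both conditions, 26.5 and 28.1 CPM pre-KD and 12.6 and 7.48 CPM post-KD, and 2 pre-KD and 4 post-KD libraries had no count. The level was lower post-KD in 7 donors, higher in 2 and 0 in both libraries of 1. The log2 fold change was −1.69 (SE 0.88, interval −3.45 to 0.07), with unadjusted p = 0.0555 and adjusted p = 0.542 in edgeR. With the donor as a block it was −2.21 in edgeR (unadjusted p = 0.0482) and −2.21 in DESeq2 (unadjusted p = 0.00783), both past the unadjusted threshold and neither past the adjusted one. In the hippocampus *Eif4ebp1* ranged from 0 to 18.02 CPM pre-KD (median 4.53) and from 0 to 25.4 CPM post-KD (median 0.834), with a log2 fold change of −0.25 (interval −2.42 to 1.91).

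**Figure D2:**
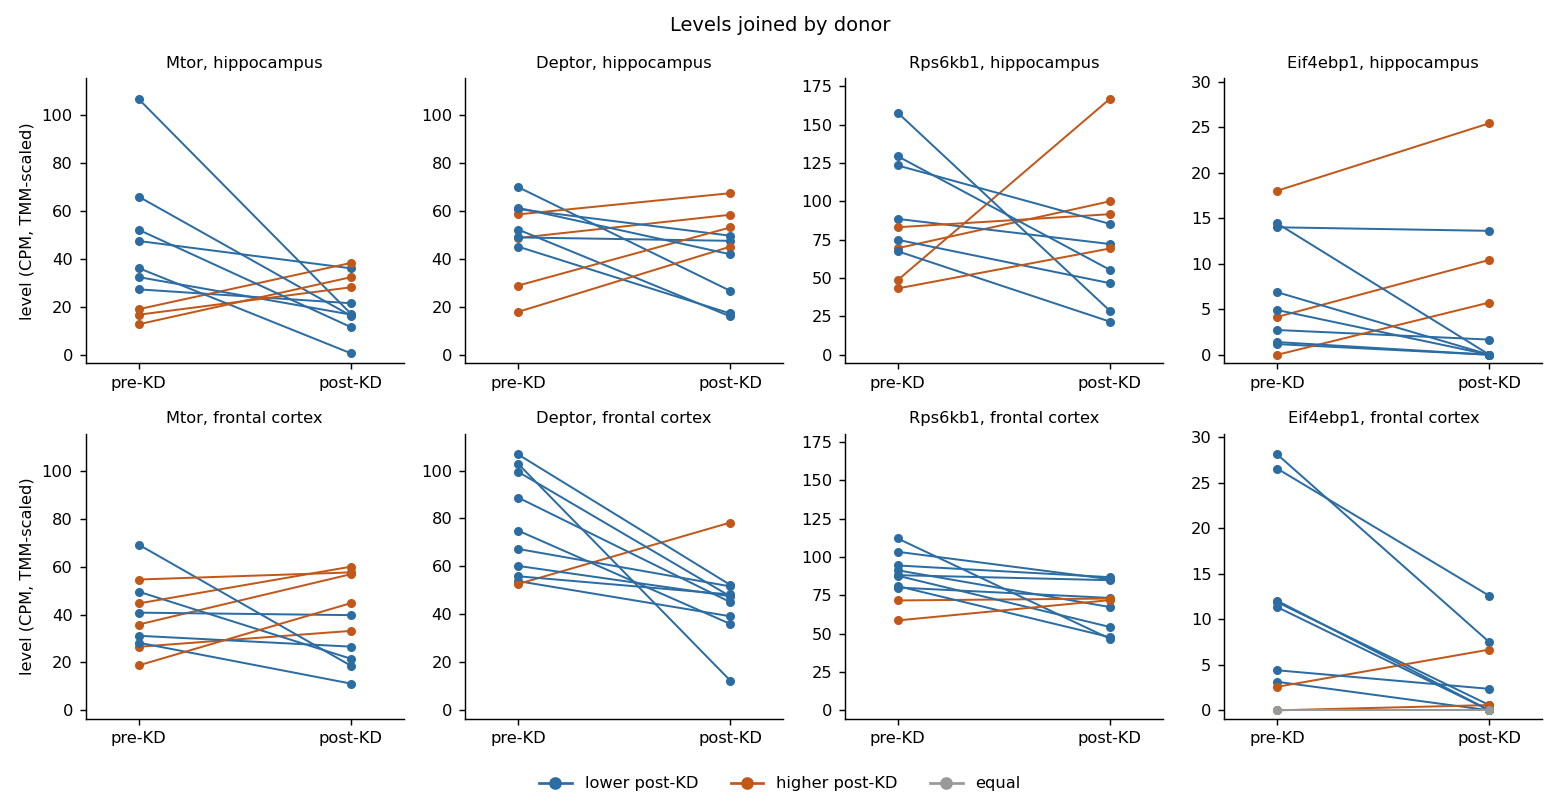
TMM-scaled CPM of 4 of the genes with both libraries of each donor joined by a line, in the hippocampus (top) and frontal cortex (bottom); blue lines go down and orange lines up post-KD. *Deptor* goes down in 9 and *Rps6kb1* in 8 of 10 donors in the frontal cortex, while hippocampal lines go both ways for all 4 genes.

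Counted over the 10 genes, 1 (*Mtor*) passed unadjusted p under 0.05 in the hippocampus, where 10.1% of all 17529 genes tested did, and 1 (*Deptor*) in the frontal cortex, where 9.68% of 17873 did. Both were lower post-KD, a direction that 5.48% and 4.68% of all genes took at that threshold. A count of 1 in 10 is close to the background share in each region. After adjustment 0 of 10 passed in either region, by edgeR or in any alternative run, and over all genes edgeR called 1 gene in each region (0.0057% and 0.0056%). The median log2 fold change of the 10 genes was −0.26 in the hippocampus against −0.01 over all genes tested, with 8 of 10 below 0 against 50.7% of all genes. The frontal cortical median was −0.07 against 0.01, with 6 of 10 below 0 against 49.2%.

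**Figure D3:**
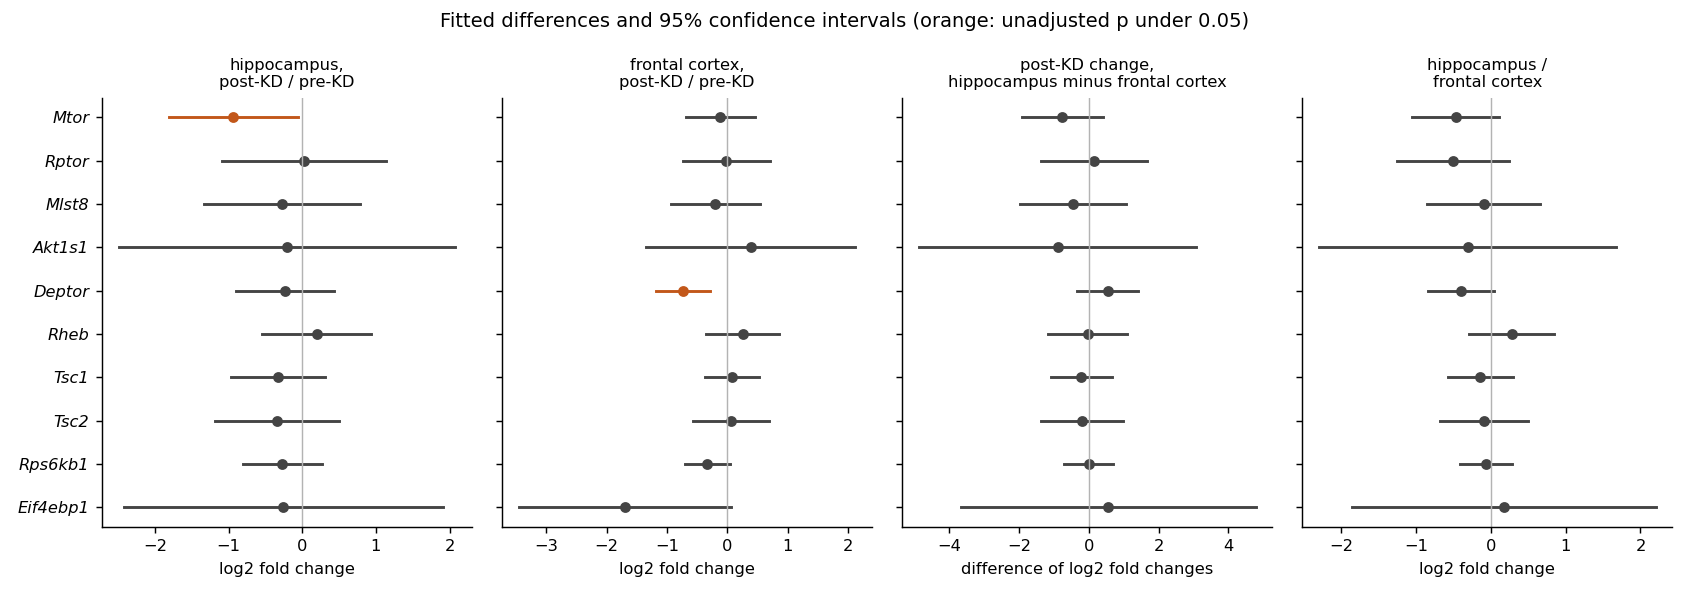
Log2 fold change of each gene (point) with its 95% confidence interval (line) in the 4 comparisons, with orange marking unadjusted p under 0.05. Only *Mtor* in the hippocampus and *Deptor* in the frontal cortex have intervals that leave out 0.

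The change post-KD was compared between regions within cohorts, and 0 of 10 genes differed at unadjusted p under 0.05, a share that was 2.22% over all 19422 genes, and 0 after adjustment, where 0.0154% did. For *Mtor* the hippocampal change minus the frontal cortical one was −0.76 on the log2 scale (SE 0.59, interval −1.92 to 0.40), with unadjusted p = 0.199 in edgeR. For *Rps6kb1* it was −0.01 (interval −0.70 to 0.68). The intervals of *Akt1s1* (−4.87 to 3.08) and *Eif4ebp1* (−3.68 to 4.78) were too wide for a comparison.

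The levels themselves were also compared between the regions of the same cohorts. Over all genes the median log2 ratio of hippocampus to frontal cortex was −0.17, so that the ratios below are read against that shift. Of the 10 genes 0 differed at unadjusted p under 0.05, where 10.9% of all genes did, and 0 after adjustment, where 2.85% did. *Deptor* had the smallest p: its log2 ratio was −0.40 (SE 0.22, interval −0.84 to 0.04), with unadjusted p = 0.0714 and adjusted p = 0.543 in edgeR, and it was lower in the hippocampus in 12 of 20 cohorts. The ratio was −0.47 for *Mtor* (interval −1.05 to 0.11) and −0.51 for *Rptor* (interval −1.26 to 0.24). *Rheb* had the highest ratio, 0.28 (interval −0.29 to 0.84), and was higher in the hippocampus in 12 of 20 cohorts. *Rps6kb1* was among the best bounded, at −0.07 (interval −0.41 to 0.28).

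The spread between libraries exceeded counting error for every gene. Within a condition the coefficient of variation of hippocampal *Mtor* was 68.5%, 4.77 times the 14.4% that counting alone gives, and that of *Rps6kb1* was 48.6%, 5.40 times its counting error of 8.99%. Over the 10 genes the spread was 2.69 to 5.40 times counting error in the hippocampus, where the median of 5494 genes averaging 20 to 100 counts was 3.94. The frontal cortical range was 1.99 (*Rheb*) to 3.94 (*Eif4ebp1*) times, against a median of 3.20 over 5531 genes. The smallest spread was that of frontal cortical *Rps6kb1*, 19.5%.

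**Figure D4:**
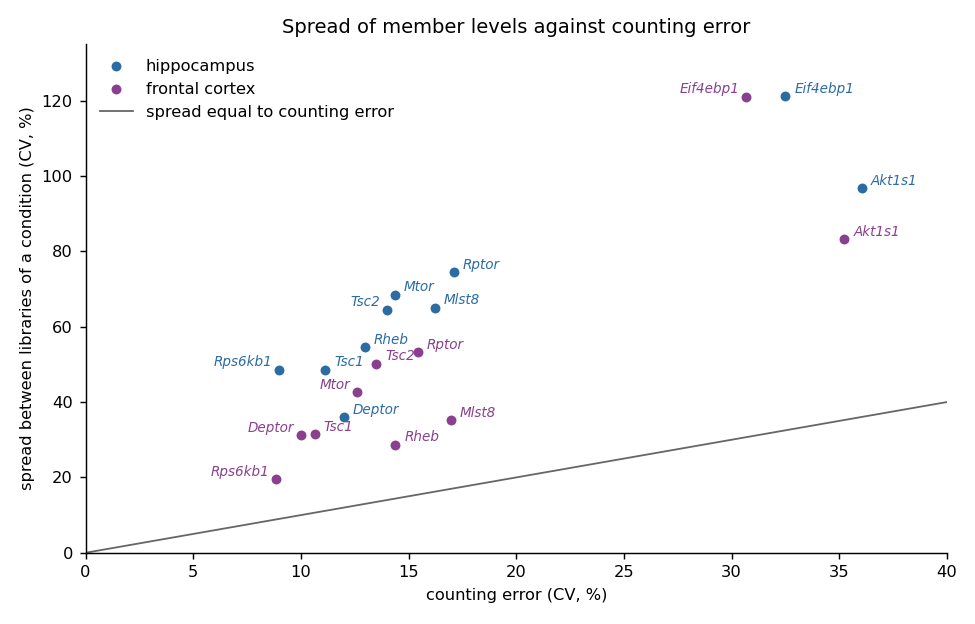
Coefficient of variation between libraries of a condition (y axis, percent) against the coefficient of variation from counting alone (x axis, percent) for each gene in the hippocampus (blue) and frontal cortex (purple); the line marks equality. All 20 points lie above the line, and the hippocampal value is the higher of the pair for each gene, by little for *Deptor* and *Eif4ebp1*.

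Whether a cohort with a high level in one region also had a high level in the other was tested over cohorts. With condition means removed, Pearson's r of log2 CPM between regions over 20 cohorts ranged from −0.33 (*Deptor*) to 0.31 (*Rps6kb1*), and 0 of 10 genes passed a two-sided permutation test after Benjamini-Hochberg adjustment. For *Deptor* Spearman's rho was −0.26, the permutation p was 0.154 for r (adjusted 0.529) and 0.271 for rho (adjusted 0.602), and r was −0.21 without the 2 cohorts farthest from the hippocampal median. For *Rps6kb1* rho was 0.25, p was 0.184 for r (adjusted 0.529) and 0.281 for rho (adjusted 0.602), and r was 0.11 without the 2 farthest cohorts. Genes averaging 4 to 160 counts had a median r of −0.001, with the 5th and 95th percentiles at −0.38 and 0.41.

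The wider pathway was described with 5 lists of 76 genes in all, of which 75 could be tested in each comparison. The lysosomal Rag-Ragulator and folliculin list holds the amino acid arm that brings mTORC1 to the lysosome. In the hippocampus 0 of its 13 genes passed unadjusted p under 0.05, where 10.1% of all genes tested did. The median log2 fold change there was 0.21. In the frontal cortex, where 9.68% of all genes tested passed, 2 of 13 did, *Rraga* as lower and *Lamtor4* as higher post-KD. *Rraga*, the RagA GTPase, ranged from 33.6 to 151 CPM pre-KD (median 51.4) and from 9.50 to 60.0 CPM post-KD (median 38.4), with a log2 fold change of −0.81 (SE 0.27, unadjusted p = 0.00311, adjusted p = 0.122 in edgeR) and lower levels in only 6 of 10 donors. *Lamtor4*, a Ragulator subunit, ranged from 11.99 to 88.7 CPM pre-KD (median 39.2) and from 46.3 to 83.3 CPM post-KD (median 63.7), with a log2 fold change of 0.49 (SE 0.25, unadjusted p = 0.0499). *Lamtor1*, the membrane anchor of Ragulator and the list's most abundant gene at 74.6 CPM over all libraries, had log2 fold changes of 0.28 (interval −0.26 to 0.81) in the hippocampus and 0.14 (interval −0.28 to 0.55) in the frontal cortex.

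Among the 16 GATOR and nutrient sensor genes, 0 passed unadjusted p under 0.05 between hippocampal conditions, where 10.1% of all genes tested did. Between frontal cortical conditions, where 9.68% of all genes tested passed, 1 of the 16 did. This was *Kptn*, a subunit of the KICSTOR complex that anchors GATOR1 at the lysosome, at 1.56 to 44.3 CPM pre-KD (median 11.2) and 0 to 10.7 CPM post-KD (median 4.47). Its log2 fold change was −1.62 (SE 0.64, unadjusted p = 0.0128, adjusted p = 0.218 in edgeR), with lower levels in 7 of 10 donors. The most abundant gene of the list was *Castor2*, of the arginine sensor family, at 84.4 CPM, with log2 fold changes of −0.26 (interval −0.77 to 0.24) in the hippocampus and −0.21 (interval −0.58 to 0.17) in the frontal cortex.

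None of the 22 genes of the growth factor and energy list, the 8 of mTORC2 and kinase assembly and the 16 tested of translation and autophagy passed unadjusted p under 0.05 between the conditions in either region. *Pik3r1*, the regulatory subunit of PI3 kinase, stood at 205 CPM over all libraries, *Rictor*, the scaffold of mTORC2, at 41.8 CPM, and *Eef2*, the elongation factor downstream of S6 kinase, at 735 CPM. Their log2 fold changes were 0.21, −0.11 and −0.17 in the hippocampus and −0.12, 0.09 and −0.06 in the frontal cortex. For *Eef2*, the best measured of them, the intervals were −0.41 to 0.08 and −0.24 to 0.12. Over the 75 genes, 0 passed in hippocampal and 3 in frontal cortical libraries, against 10.1% and 9.68% of all genes, and the medians were 0.02 and 0.05.

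**Figure D5:**
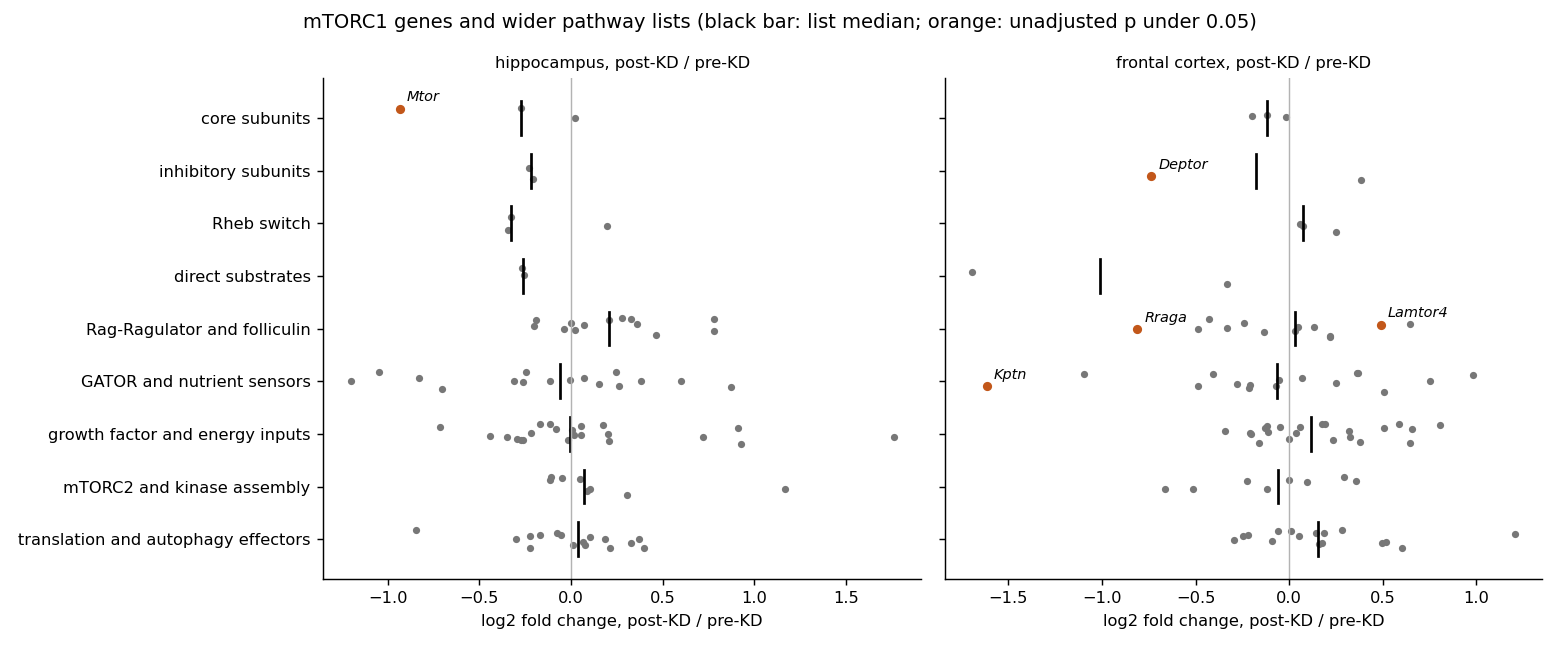
Log2 fold change post-KD over pre-KD of the 10 genes (upper 4 rows, by role) and of 5 wider pathway lists in the hippocampus (left) and frontal cortex (right); each point is a gene, the black bar is the list's median and named orange points have unadjusted p under 0.05. Points of every wider list lie on both sides of 0 in both regions.

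The change post-KD differed between regions at unadjusted p under 0.05 for 2 of the 75 genes, close to the 2.22% of all genes, and after adjustment for 0. *Prkaa1*, a catalytic subunit of the energy sensor AMPK, had a hippocampal minus frontal cortical change of −2.50 (SE 1.22, unadjusted p = 0.0358, adjusted p = 1 in edgeR), with means of 16.5 ± 9.91 and 10.1 ± 9.77 CPM pre- and post-KD in the hippocampus and 7.77 ± 6.49 and 13.7 ± 8.46 CPM in the frontal cortex. *Larp1*, an mTORC1 substrate that binds mRNAs of the translation machinery, had a difference of 0.49 (SE 0.25, unadjusted p = 0.0490), with means of 146 ± 44.8 and 190 ± 49.0 CPM in the hippocampus and 162 ± 46.0 and 152 ± 45.6 CPM in the frontal cortex. Between the regions themselves 2 of the 75 genes passed the adjusted threshold, close to the 2.85% of all genes, both lower in the hippocampus: *Rragd*, the RagD GTPase, with a log2 ratio of −0.81 (SE 0.24, adjusted p = 0.0335), and *Eef2*, with −0.23 (SE 0.07, adjusted p = 0.0365), each lower in 14 of 20 cohorts. The *Rragd* call was lost without donor 1, 4, 9 or 10 (adjusted p from 0.0597 to 0.163), and the *Eef2* call without donor 2, 3, 5 or 6 (0.0877 to 0.275) and with RLE size factors (log2 ratio −0.20, adjusted p = 0.110). Both calls were also lost with filterByExpr, at an adjusted p of 0.0541 for each. The *Eef2* ratio lies close to the median of −0.17 over all genes.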

How the data were processed

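Per the labels and methods, RNA from pooled recipient tissue was sequenced as paired reads, aligned by the authors to mm10 with STAR 2.5.2a and counted with HTSeq 0.6.0 (SAMtools 1.3, FastQC 0.11.5). The annotation release and the strand setting are not given in the sources used here. The authors deposited 1 table of raw, unnormalized read counts per region, and all 40 columns were used. No value was missing, 0 libraries were identical within a region and condition, and 0 value columns were left unused. Totals of 1140756 to 2095352 counts limit the precision of low genes. Ensembl identifiers were matched to GENCODE M21 (GRCm38) for symbols, positions and union exon lengths, with 47224 of 47643 matched. One gene, *Gm42418*, took 8.63% to 18.0% of the counts of a library.

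A minimum of 10 summed counts per gene was set, and edgeR 4.0.16 (R 4.3.3, limma 3.58.1) was run with TMM factors and its quasi-likelihood test, in each region post-KD against pre-KD without covariates. All 40 libraries, with 20 cohort terms, were fitted together for the regional difference in the change and for region. P values were adjusted by Benjamini-Hochberg over all genes of a fit, with thresholds of 0.05 on unadjusted p, as in the study, and on adjusted p. Standard errors were derived from the quasi-likelihood F statistic. Fold changes are edgeR's moderated estimates. Permutation tests used 100000 resamples and log2 CPM a prior count of 2. The fits were also run on counts simulated from the fitted model without cohort effects. Only the direction and median size of planted changes had to be recovered there, which does not test the p-values of these data.

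Both libraries of a donor number in a region come from 1 donor, so donors pair the cohorts by design. On genes averaging at least 20 counts, deviations from condition means correlated within donors at −0.028 to 0.030 for hippocampal and −0.056 to 0.032 for frontal cortical libraries, with 0 of 10 pairs above 0.1 in either. Alternatives were RLE size factors, no gene filter, filterByExpr, DESeq2 1.42.0, limma-voom with quality weights, a donor block in either tool, the fits over 40 libraries without the cohort term, *Gm42418* left out, Y-linked level as a covariate, each donor left out in turn and, chosen after seeing the data, 3 hippocampal libraries of few genes left out. The 10 genes, the wider lists and the markers were chosen with earlier results of these data known. Named genes of the wider lists were those at unadjusted p under 0.05 between conditions, the most abundant of each list and, between regions, the smallest p in each direction past the adjusted threshold. Some marker genes are not reported here. Nothing says that pools came from separate experiments, so p-values cover the spread between these cohorts only. Python 3.11.15, pandas 2.3.3, numpy 2.4.6, scipy 1.17.1 and matplotlib 3.10.9 were used.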

Additional observations from a re-analysis of the deposited data

Results flagged for a closer look

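Within each group of 10 libraries, a library standing far from the others was looked for with Dixon's criterion in 40 groups of the 10 genes, and 2 groups had one. Chance alone marks about 1 in 20 groups. *Mlst8* stood at 45.7 CPM in the frontal cortical library of pre-KD cohort 2, where the nearest other library was at 30.4 CPM. *Rheb* stood at 87.4 CPM in the hippocampal library of pre-KD cohort 7, where the nearest other was at 53.4 CPM. That hippocampal library is also the second highest for *Mtor* and among those with the fewest genes detected (10528).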

How the results depend on the processing

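Of the 10 genes 0 passed the adjusted threshold in any comparison under any alternative run. At unadjusted p under 0.05 the hippocampal count of 1 became 0 with limma-voom, with the replicate block in edgeR and without the 3 libraries of few detected genes, and ranged from 0 to 2 when donors were left out in turn. The frontal cortical count of 1 became 2 with no gene filter, DESeq2, limma-voom, the replicate block in edgeR and the Y-linked covariate, 3 with the block in DESeq2, and 1 to 2 over left-out donors, and the regional count of 0 ranged from 0 to 2. Over all genes, 1762 passed unadjusted in the hippocampus, against 2931 with no filter, 221 with filterByExpr, 599 with DESeq2, 962 with limma-voom, and 348 and 931 with the block in edgeR and DESeq2. The 1 adjusted call became 1291 with no filter, 0 with filterByExpr, DESeq2 and both blocked fits, and 0 to 1 over left-out donors. In the frontal cortex 1731 passed unadjusted, against 3035, 407, 825, 1071, 548 and 1096 in that order, and the 1 adjusted call became 2 with DESeq2, 3 with limma-voom and with the block in edgeR, and 12 with the block in DESeq2. For the regional difference in change, 431 and 3 adjusted became 1767 and 348 with no replicate block, and the adjusted count 0 with filterByExpr; for region, 2117 and 554 became 3475 and 1935 with no block. The cause of these shifts was not tested. Calls aside, some signs turned. Hippocampal *Rptor* (0.02) was −0.22 without the 3 libraries, −0.95 with limma-voom, −0.0989 and −0.0608 with the donor pairing in edgeR and DESeq2, and −0.29 to 0.34 over left-out donors. Without the 3 libraries *Rps6kb1* was 0.0183 and *Eif4ebp1* 0.0229, and *Akt1s1* was 0.00122 with the Y-linked covariate. Left-out donors gave −0.73 to 0.18 for *Akt1s1* and −0.65 to 0.10 for *Eif4ebp1*. In the frontal cortex *Tsc2* was −0.16 with limma-voom and −0.13 and −0.12 with the donor pairing in edgeR and DESeq2, and left-out donors gave −0.26 to 0.22 for it, −0.23 to 0.0818 for *Mtor*, −0.25 to 0.10 for *Rptor* and −0.0908 to 0.16 for *Tsc1*. For the regional difference *Rps6kb1* was 0.068 with no replicate block, and left-out donors gave −0.22 to 0.25 for it, −0.26 to 0.53 for *Rptor*, −0.21 to 0.33 for *Rheb*, −0.38 to 0.00446 for *Tsc1*, −0.47 to 0.15 for *Tsc2* and −0.63 to 1.68 for *Eif4ebp1*. For region, with no block, *Mlst8* was 0.22, *Akt1s1* 0.0445 and *Rps6kb1* 0.0616, and left-out donors gave −0.26 to 0.0556 for *Mlst8*, −0.74 to 0.16 for *Akt1s1*, −0.24 to 0.0353 for *Tsc2*, −0.16 to 0.0193 for *Rps6kb1* and −0.31 to 0.77 for *Eif4ebp1*. Correlations turned for *Rptor* (−0.14) and *Eif4ebp1* (0.00522) without the 2 farthest cohorts and for *Eif4ebp1* (0.0702) with diet means kept. Apart from counts, the replicate block changed no other call of the 10 genes after adjustment.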
